A study of Schizosaccharomyces pombe with 23 samples.

Results

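The outer 100 kb of both long chromosomes of Schizosaccharomyces pombe, the subtelomeres of chromosomes I and II, were described from Pu-Seq counts. All bins positioned in the outer 100 kb of either chromosome in the coordinates of the files were taken, 1334 of 41909 bins of 300 bp. Each left end held 333 bins and each right end 1 bin more. Pu-Seq maps where a mutated replicative polymerase placed ribonucleotides. In each strain either Pol δ (cdc6-L591G) or Pol ε (cdc20-M630F) carried the mutation, and rnh201-RED prevented the removal of single ribonucleotides. All strains also carried the RTS1 barrier (RFB) on chromosome II with ura4-D18, ade6-704 and leu1-32, and were grown to log phase in YE at 30C. The barrier blocks forks when Rtf1 is made from the ADH1 promoter (RFB ON, Nat:ADH1:rtf1) and not when rtf1 is deleted (RFB OFF, rtf1::Nat).

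The study asked how loss of the proteasome subunit Rpn10 or of the nuclear pore protein Nup132 affects forks that restart at this barrier. The groups, as labelled, were rpn10Δ RFB ON (3 Pol δ and 3 Pol ε libraries), nup132Δ RFB ON (4 and 4), nup132Δ RFB OFF (1 Pol δ library), WT RFB ON (1 and 1) and WT RFB OFF (1 library with the Pol δ mutation and 2 with that of Pol ε). A further 3 libraries, with totals of 987 to 7167 counts, were too shallow and were left out. The 20 libraries used held 5396348 to 38663174 counts, of which 2.54 to 3.67% fell in the 4 ends, which hold 3.18% of all bins. A bin of the ends had 123 to 960 counts on average, and none was at 0. Libraries are named by their strain number. Libraries of a group differed by more than counting error (19 pairs, chi-square per degree of freedom 2.60 to 31.2), and the labels do not say whether they came from separate cultures, so that the p-values may measure a technical spread.

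Several libraries went against their labels. The rpn10 gene had 0 to 0.00121 of the counts of its flanks in the other 4 rpn10Δ libraries, but 0.5255 in KK1894 and 0.505 in KK1895. These libraries, labelled Pol ε, also had a strand pattern with the sign of Pol δ: the slope of the Watson share on WT usage was 0.0932 in KK1894 and 0.0733 in KK1895, against -0.543 to -0.147 in the other Pol ε libraries. KK1581 and KK1582, labelled rpn10Δ RFB ON, had 0.0511 and 0.0553 of the flanking counts over rtf1, where libraries labelled rtf1::Nat had 0.0318 to 0.0482 and the other libraries labelled RFB ON had 0.636 to 0.818. The nup132 gene had 0.0135 to 0.0205 in all 9 nup132Δ libraries, against 0.966 to 1.21 elsewhere. No Pol ε library labelled rpn10Δ thus matched its labels throughout. The 6 libraries are called rpn10Δ below, with no barrier state, and results on them are given with and without KK1894 and KK1895. The window fits and the sets of RFB ON libraries only nevertheless took them as labelled, RFB ON, including KK1581 and KK1582. Without this pair the Pol ε side of rpn10Δ is KK1582 alone. Without KK1581 and KK1582 it is KK1894 and KK1895, and all 4 libraries left are Hygro-marked.

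Replication of a chromosome end differs from that of an inner region in one respect: no fork can enter from beyond the end, so the terminal segment is copied by forks moving outward from the last active origin. In fission yeast the subtelomeres are packed in heterochromatin and share long repeats, and many of their origins fire late or rarely. Pol ε makes the leading and Pol δ the lagging strand, so Pol δ on the Watson strand marks forks moving left, and Pol δ on the Crick strand marks forks moving right. A leftward fork moves toward the end at the left ends and away from it at the right ends.

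Fission yeast origins lack a fixed consensus and lie in A+T-rich gaps between genes with runs of A or T. The bin with the most efficient origin of 3 ends is printed below, since the efficiencies of these origins are compared between conditions, from RefSeq (ASM294v3, plus strand). Capitals mark every run of at least 8 bases made of A and T only.
chrI:61801-62100: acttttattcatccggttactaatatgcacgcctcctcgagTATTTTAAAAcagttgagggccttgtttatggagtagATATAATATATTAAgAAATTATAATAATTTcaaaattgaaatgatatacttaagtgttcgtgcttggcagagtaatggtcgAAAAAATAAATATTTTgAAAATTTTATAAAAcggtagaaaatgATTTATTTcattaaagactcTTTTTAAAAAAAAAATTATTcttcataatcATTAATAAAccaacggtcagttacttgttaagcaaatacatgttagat
chrI:5482201-5482500: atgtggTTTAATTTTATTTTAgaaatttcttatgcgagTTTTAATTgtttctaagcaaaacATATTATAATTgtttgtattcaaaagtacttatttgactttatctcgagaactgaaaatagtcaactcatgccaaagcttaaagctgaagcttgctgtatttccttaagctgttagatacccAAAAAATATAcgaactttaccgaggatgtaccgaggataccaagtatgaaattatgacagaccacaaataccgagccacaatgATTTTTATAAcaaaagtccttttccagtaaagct
chrII:52501-52800: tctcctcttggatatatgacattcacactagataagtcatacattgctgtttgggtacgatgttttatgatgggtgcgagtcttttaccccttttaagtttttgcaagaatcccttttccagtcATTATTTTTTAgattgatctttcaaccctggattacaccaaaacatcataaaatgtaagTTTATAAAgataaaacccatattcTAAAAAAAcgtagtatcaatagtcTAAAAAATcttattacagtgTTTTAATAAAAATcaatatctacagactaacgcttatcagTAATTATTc
The runs cover 106 bases in the first, 54 in the second and 56 in the third. At least 1 such run was present in 94.1% of the 999 bins of these ends and in 88.7% of the bins of chromosome I outside the ends, so its presence alone sets no origin apart. As many bases in runs were found in 0.703% of the bins of chromosome I outside the ends for the first bin, 15.2% for the second and 13.7% for the third. The first bin lies 959 bp from SPOM_SPAC977.14C, an aldo-keto reductase gene, and 851 bp from SPOM_SPAC977.15, a gene of the dienelactone hydrolase family. The second overlaps the noncoding RNA SPOM_SPNCRNA.4467 and lies 162 bp from SPOM_SPAC922.09, which encodes an uncharacterized protein. The third lies between grt1, a transcription factor gene 1320 bp away, and the asparaginase gene SPOM_SPBPB8B6.05C, 1522 bp away. No sequence or gene is given for the right end of chromosome II, because there the counts matched the reference only with a shift of 1900 bp (correlation with A+T content 0.496, against 0.004 without the shift), while the other ends matched best without a shift (0.499 to 0.569).

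The 4 ends shared much of their sequence. Of the 300-bp tiles of the reference, 163 of 333 at the left end of chromosome I (48.9%) had another copy of at least 95% identity over 150 bp, as did 70 of 333 at its right end (21.0%), 136 of 333 at the left end of chromosome II (40.8%) and 145 tiles at its right end (43.4%). In the outer 40 kb the shares were 89.5, 50.4, 73.7 and 86.5%, in the same order. The outer 12 kb of the left end of chromosome I were 99.9% identical to a stretch of the reference 7.26 to 19.3 kb from the right end of chromosome II. The outer 5.5 kb of the left end of chromosome II occurred in identical form 26.9 to 32.4 kb from the right end of the same chromosome. The 4 ends thus start at different places of the shared sequence, and equal distances from them are not equal places in it. How reads with several matches were placed is not given in the sources used here, so counts in the outer 40 kb cannot be assigned to 1 end, and the part of these copies in the results was not tested.

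Counts rose steeply toward the right end of chromosome II. Count density is the mean count per bin of a region divided by that of the rest of chromosomes I and II in the same library. The outer 5 kb of this end had densities of 2.98 to 7.23 in rpn10Δ (median 3.87, n = 6), 3.41 to 7.01 in nup132Δ (median 5.46, n = 9) and 5.35 to 7.76 in WT libraries (median 6.21, n = 5). All 20 libraries were thus at least 2.98 times as dense there as in the rest. Over all libraries the median density was 5.74 at 0 to 5 kb, 3.57 at 5 to 10 kb, 2.25 at 10 to 15 kb, 1.17 at 15 to 20 kb, 1.52 at 20 to 25 kb and 1.00 at 25 to 30 kb, so that it declined inward with a lower peak on the way. Over the full 100 kb the density of the right end of chromosome II was 1.34 (geometric mean, n = 20), above 1 in 20 of 20 libraries (permutation test by sign flips, two-sided, p = 1e-05, the smallest it can give, adjusted p = 5e-05).

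The left end of chromosome I rose less, to 2.03 at 0 to 5 kb and 1.72 at 5 to 10 kb (medians of 20 libraries). This segment holds tlh1, the outermost annotated gene of this end, which encodes a RecQ type DNA helicase. Its outer 10 kb had densities of 1.44 to 2.07 in rpn10Δ (median 1.65), 1.51 to 2.15 in nup132Δ (median 1.96) and 2.23 to 2.56 in WT (median 2.41), so that no mutant library reached the lowest WT library. Over 100 kb this end did not stand apart from the rest (0.994, above 1 in 8 of 20 libraries, sign-flip permutation p = 0.751). The right end of chromosome I, which ends in SPOM_SPAC750.08C, a gene for an NAD-dependent malic enzyme, reached 1.35 at 5 to 10 kb. The left end of chromosome II, which begins with SPOM_SPBC1348.15, an uncharacterized gene, began at 0.75. Over 100 kb both were below the rest: the right end of chromosome I at 0.917 (below 1 in 16 of 20 libraries) and the left end of chromosome II at 0.912 (below 1 in 18 of 20), with an adjusted sign-flip permutation p of 0.000117 for each. Together the 4 ends had a density of 1.04 (sign-flip permutation p = 0.0680).

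Beyond 40 kb from the end, where copies are fewer, the ends resembled each other. The median density over 20 libraries was 0.869 at the left and 0.904 at the right end of chromosome I, and 0.880 at the left and 0.862 at the right end of chromosome II. The right end of chromosome II, the densest over 100 kb, was thus below the rest in this inner stretch, with 0.739 to 0.959 in the 20 libraries.

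**Figure D1:**
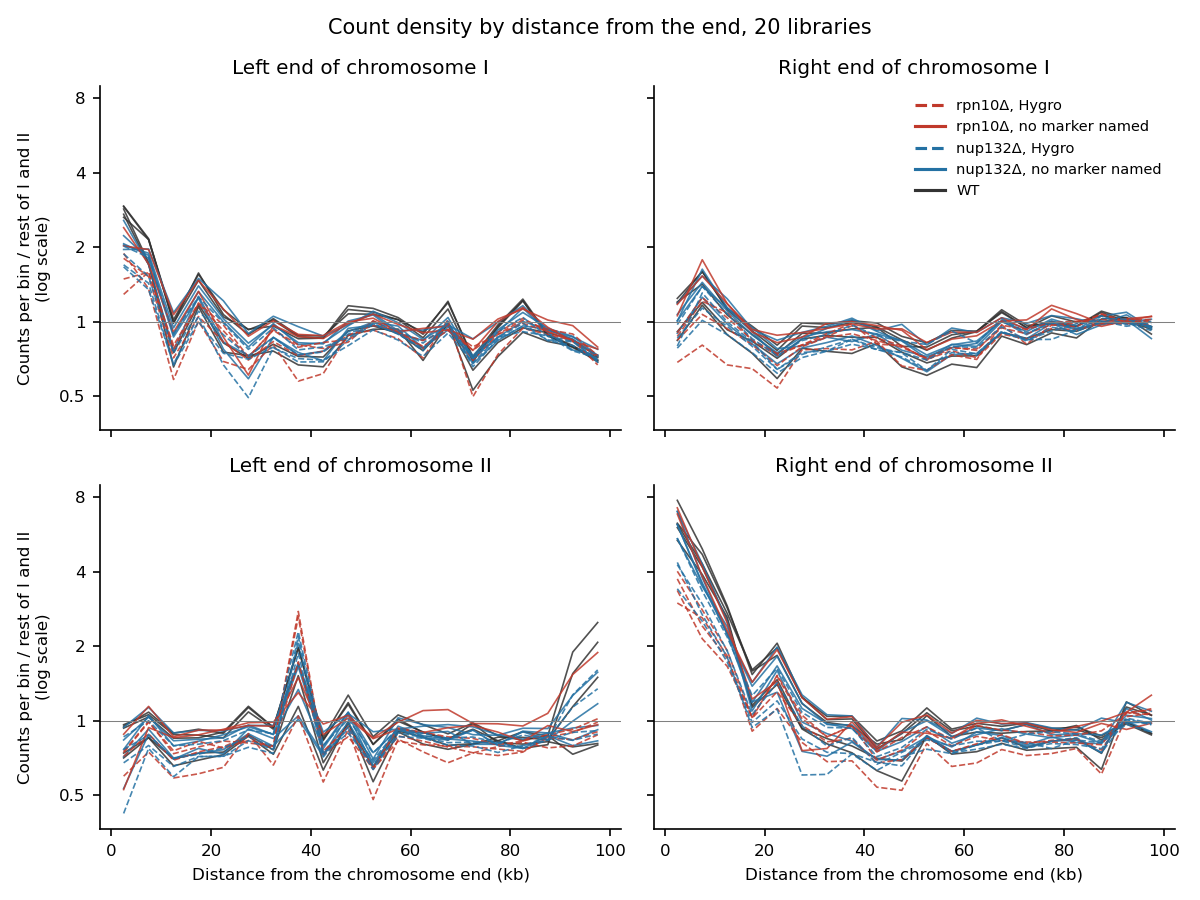
Count density (log scale, 1 = rest of chromosomes I and II) in classes of 5 kb against distance from the end in kb, 1 line per library of the 20 used. Lines climb to between 2.98 and 7.76 at the right end of chromosome II, where the highest dashed line (Hygro-marked mutants), KK1905, starts at 5.46 and the lowest solid ones at 5.35 and 5.43.

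Neither deletion changed the density of an end past the threshold. Of 12 comparisons (4 ends and 3 pairs of backgrounds, exact permutation within each polymerase, two-sided), none passed, and the lowest adjusted p was 0.39. At the right end of chromosome II the densities were 1.02 to 1.55 in rpn10Δ (median 1.18), 1.09 to 1.56 in nup132Δ (median 1.36) and 1.32 to 1.67 in WT libraries (median 1.55), which overlap. The log2 difference was -0.23 for rpn10Δ minus WT (exact permutation p = 0.1) and -0.14 for nup132Δ minus WT (exact permutation p = 0.129).

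The density of several segments moved with the marker of the deletion, a comparison added after the data were seen. In the outer 15 kb of the right end of chromosome II, the Hygro-marked mutants KK1868, KK1869, KK1894, KK1895, KK1901, KK1902, KK1905 and KK1906 had densities of 2.39 to 3.66 (median 2.78, n = 8). The 7 mutant libraries with no marker named had 3.77 to 4.64 (median 4.33), and the 5 WT libraries had 3.95, 4.24, 4.41, 4.60 and 5.20. The 2 classes of mutant did not overlap, and unmarked mutants lay within or just below the WT range. In the outer 10 kb of the left end of chromosome I, Hygro-marked mutants had 1.44 to 1.93, unmarked mutants 1.96 to 2.15 and WT libraries 2.23 to 2.56, so that here both classes of mutant lay below all WT libraries. The ratio of Hygro-marked to unmarked mutants was 0.650 in the outer 15 kb of the right end of chromosome II, 0.802 in the outer 10 kb of the left end of chromosome I and 0.854 over all 4 ends (exact permutation within background and polymerase, two-sided, p = 0.00185 for each, the smallest it can give, adjusted p = 0.00259 over 7 regions). At the left end of chromosome II the ratio was 0.916 (exact permutation p = 0.1). Marked and unmarked mutants are different strains, and the titles number the marked libraries in a run of their own, so marker, strain and this numbering cannot be told apart.

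Barrier activity made no detectable difference. The ratio of RFB ON to RFB OFF was 0.972 at the left and 0.978 at the right end of chromosome I, and 0.971 at the left and 0.916 at the right end of chromosome II (exact permutation, p = 0.1 to 0.733, where the design allows 0.0333 at the lowest). Pol δ libraries had 0.905 to 0.948 times the density of Pol ε libraries at single ends, and no adjusted p passed (lowest 0.0686, exact permutation).

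Windows of 3 kb were then fitted across the genome with edgeR's quasi-likelihood test. For rpn10Δ minus WT, 5 of 133 windows of the ends passed (3.76%), all lower, beside 8.97% of all windows in either direction, 4.87% higher and 4.1% lower. The outermost was chrI:1-3000 in tlh1, with densities of 1.11 to 2.05 in rpn10Δ (median 1.67), 1.49 to 2.32 in nup132Δ (median 1.78) and 2.37 to 2.67 in WT libraries (median 2.58, fold 0.644, edgeR adjusted p = 0.0231). Its neighbour chrI:3001-6000, which holds the rest of tlh1, had 1.60 to 2.60 in rpn10Δ (median 1.99), 1.81 to 2.70 in nup132Δ (median 2.25) and 2.81 to 3.08 in WT (median 2.93, fold 0.721 for rpn10Δ, edgeR adjusted p = 0.0380). The window 10.5 kb from the right end of chromosome II, a region that shares its sequence with the left end of chromosome I, had 1.503 to 2.65 in rpn10Δ (median 2.11), 1.89 to 2.98 in nup132Δ (median 2.19) and 2.85 to 3.26 in WT (median 3.15, fold 0.685 for rpn10Δ, edgeR adjusted p = 0.0271). In these 3 windows no rpn10Δ library reached the lowest WT library. No nup132Δ library reached it either in both windows of tlh1, so these low values were not particular to rpn10Δ.

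Smaller differences were called at chrI:66001-69000 over most of SPOM_SPAC977.17, a gene of the MIP channel superfamily (fold 0.836), and at chrI:5487001-5490000 over most of atd2, an aldehyde dehydrogenase gene, and part of cat1, which encodes a transporter of basic amino acids (fold 0.886). The 5 calls depended on single libraries: 0 windows of the ends passed without KK1894 and 0 without KK1475, 1 without KK1895, 2 without KK1473 or KK1474 and 3 without KK1902, but 8 without KK1581, 10 without KK1467 and 12 without KK1471. None passed without KK1894 and KK1895 together. For nup132Δ minus WT no window of the ends passed with edgeR, beside 0.0477% of all windows, though 14 had an unadjusted p under 0.05, and DESeq2 also called 0. For rpn10Δ minus nup132Δ 2 windows passed, both higher in rpn10Δ, beside 9.59% of all windows (8.83% higher and 0.763% lower), at 97.5 kb from the right end of chromosome II (fold 1.16) and at the inner border of the right end of chromosome I (fold 1.12). With RFB ON minus OFF no window of the genome passed (0%), no window of the ends had an unadjusted p under 0.05, and DESeq2 called 0 in the ends.

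Some segments of the left end of chromosome II stood out for their sequence. Between SPOM_SPBC1348.12, a transcription factor gene, and ght7, a hexose transporter gene, 361 bp at chrII:36903-37263 were 95.3% identical to the mitochondrial genome. The first 300 bp are shown because reads from mitochondrial DNA could also match them, with the bases that differ from the mitochondrial sequence in capitals (RefSeq, ASM294v3, plus strand).
chrII:36903-37202: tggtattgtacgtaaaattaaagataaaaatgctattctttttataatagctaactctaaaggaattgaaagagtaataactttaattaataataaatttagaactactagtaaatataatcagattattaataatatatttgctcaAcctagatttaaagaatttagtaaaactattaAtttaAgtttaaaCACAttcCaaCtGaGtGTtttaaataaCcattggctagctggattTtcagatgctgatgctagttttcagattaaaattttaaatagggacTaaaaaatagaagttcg
The bins that hold this segment had densities of 3.37 to 16.4 in rpn10Δ (median 6.77), 2.78 to 12.2 in nup132Δ (median 7.35) and 3.56 to 8.03 in WT libraries (median 7.01), with 17.1 to 35.3% of the counts on the Watson strand. The lowest library was thus 2.78 times as dense as the rest. The 2 highest, at 15.8 and 16.4, were KK1894 and KK1895. The part of mitochondrial reads in these counts was not tested.

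Farther in, 4 copies of a 2759-bp unit, identical to each other, lie head to tail at chrII:91637-102672. The genes SPOM_SPBPB10D8.04C to SPOM_SPBPB10D8.07C, annotated as transporters, lie along it. The ratio of the array to its flanks was 0.964 to 1.67 in rpn10Δ (median 1.02), 0.931 to 1.73 in nup132Δ (median 1.07) and 0.898 to 2.62 in WT libraries (median 1.53). In WT the ratio was 2.62 in KK1467 and 1.53 in KK1471, both Pol δ, and 2.45 in KK1474, 0.949 in KK1473 and 0.898 in KK1475, all Pol ε. Each background thus held libraries near 1 and libraries well above it, and KK1473 and KK1474 differed although both are WT RFB OFF Pol ε.

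Other segments were low in single libraries. The shared 5.5-kb segment at the tip of the left end of chromosome II had densities of 0.443 to 0.551 in KK1901, KK1517 and KK1581 and 0.617 to 0.982 in the other 17 libraries. At its copy on the left end of chromosome I (chrI:23286-28787), the same 3 libraries had 0.512 to 0.599 and the others 0.638 to 1.00. These libraries are all Pol δ and come from both mutants. They were picked after their values were seen, so no test is given.

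**Figure D2:**
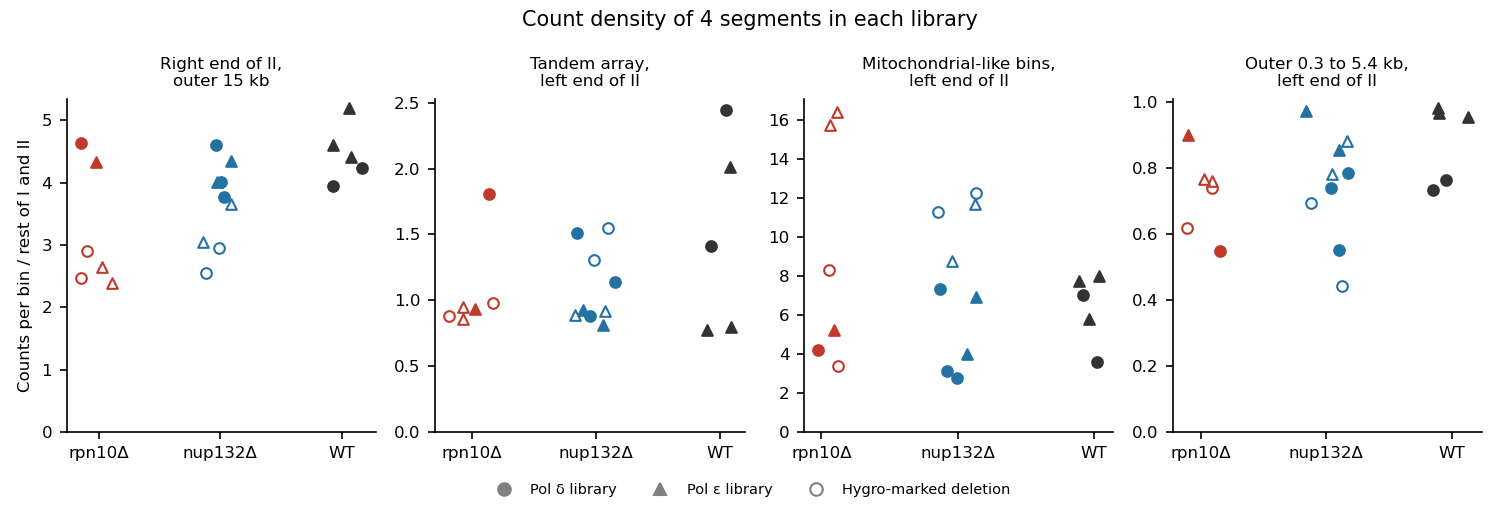
Count density (1 = rest of chromosomes I and II) of 4 segments, 1 point per library in rpn10Δ, nup132Δ and WT; circles are Pol δ and triangles Pol ε libraries, and open symbols Hygro-marked deletions. Open symbols stay at or below 3.66 in the outer 15 kb of the right end of chromosome II, where filled ones start at 3.77.

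By the combined usage of both polymerases, forks moved toward the end more often than away from it at all 4 ends. The share moving toward the end was computed from Pol δ usage on both strands, where usage is the Pol δ share of scaled Pol δ plus Pol ε counts. Over 100 kb it was 54.2% in rpn10Δ, 55.2% in nup132Δ RFB ON, 58.5% in WT RFB ON and 58.2% in WT RFB OFF at the left end of chromosome I. At the right end of chromosome I it was 52.0, 53.3, 54.8 and 54.4% in the same order of conditions. The left end of chromosome II gave 52.7, 52.6, 53.7 and 54.0%, and the right end 56.6, 57.8, 58.9 and 59.3%. Each of these values lay above 50%, the value of an even mixture. Counts were summed over the whole end first, so dense stretches weigh more in these values. Such stretches are the outer 15 kb of the right end of chromosome II (median density 3.98 over 20 libraries) and the mitochondrial-like bins of the left end of chromosome II (median 7.18). Their part in the values was not tested. At the right end of chromosome II the polymerases differed in WT and in both mutants. There the share from the strands of a single library, scaled by its slope, was 68.0 and 66.2% in the WT Pol δ libraries. In the WT Pol ε libraries it was 51.6, 52.0 and 52.3%. In nup132Δ it was 65.4 to 71.0% in Pol δ and 55.5 to 58.4% in Pol ε libraries. In rpn10Δ it was 62.6 to 69.5% in Pol δ libraries, 54.9% in KK1582, and 51.2 and 57.6% in KK1894 and KK1895. The WT Pol δ libraries were also above the WT Pol ε libraries at the other ends, with smaller gaps. From the left end of chromosome I to the right end of chromosome II, the values of rpn10Δ were 56.4, 53.3, 52.9 and 58.0% without KK1894 and KK1895 (3 Pol δ libraries and KK1582), and 52.3, 51.0, 52.2 and 54.7% without KK1581 and KK1582. At each end the value of nup132Δ lay between these 2 values of rpn10Δ.

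Usage differed between the strands accordingly. In WT RFB OFF Pol δ usage at the left end of chromosome I was 53.0% on the Watson and 36.7% on the Crick strand, and at the right end of chromosome II it was 34.6% on Watson and 53.2% on Crick. In nup132Δ RFB ON the strands were nearer to each other, with 52.0% on Watson and 41.7% on Crick at the left end of chromosome I and 37.7% on Watson and 53.4% on Crick at the right end of chromosome II. In rpn10Δ the values were 52.3 and 43.9% at the left end of chromosome I and 41.0 and 54.2% at the right end of chromosome II, Watson before Crick. They were 52.3 and 39.5%, and 35.4 and 51.4%, without KK1894 and KK1895, with the strands farther apart than in nup132Δ.

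**Figure D3:**
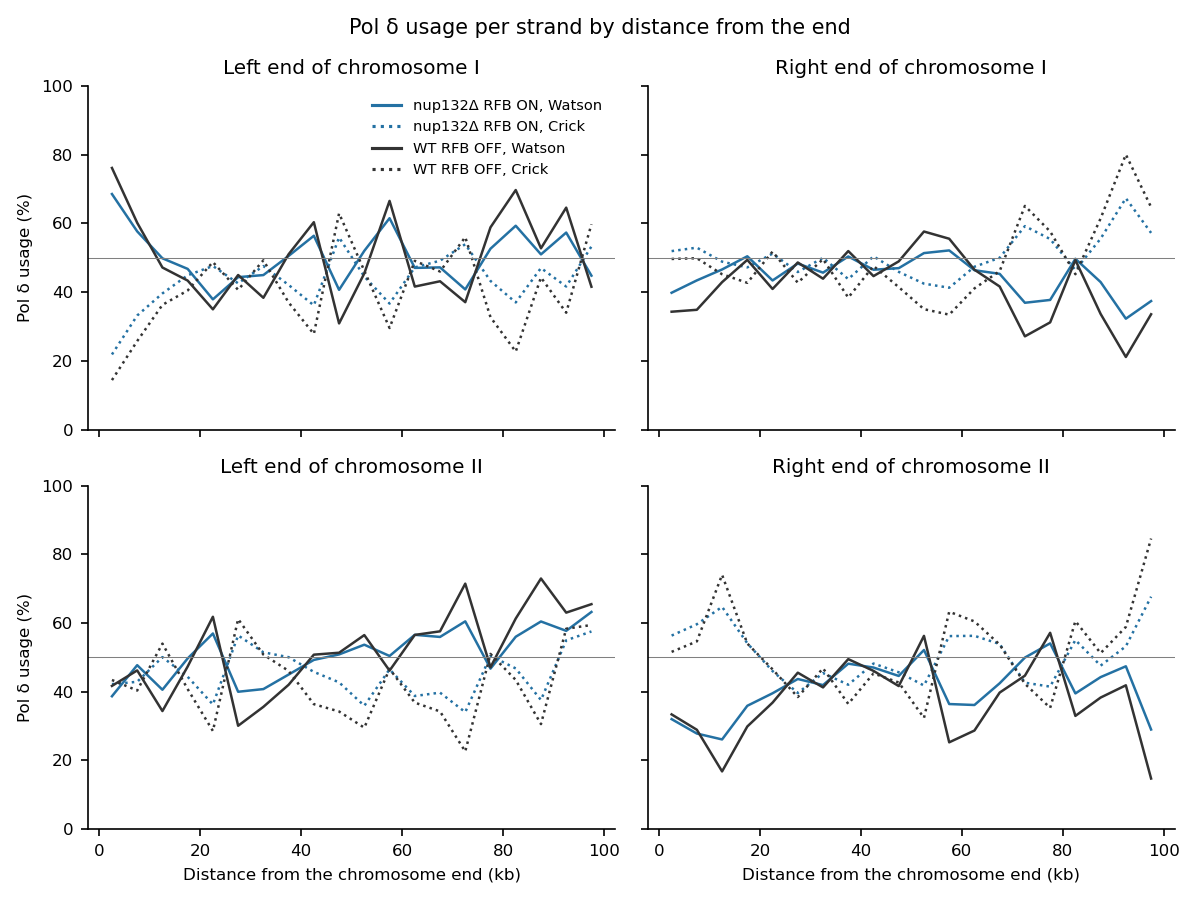
Pol δ usage (%) in classes of 5 kb against distance from the end in kb, on the Watson (solid) and Crick (dotted) strands, in nup132Δ RFB ON (blue) and WT RFB OFF (black). In WT RFB OFF the strands part to 76.1% Watson and 14.4% Crick at the tip of the left end of chromosome I and to 14.7% Watson and 84.6% Crick at 95 to 100 kb of the right end of chromosome II, and the blue lines lie closer together at these places.

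Of the 4 tips, as the coordinates of the files place them, the left end of chromosome I was the most directed. These tips lie at different places of the shared sequence: that of the left end of chromosome II matches chrI:23286-28787. In the outermost 5 kb, 70.1% of forks moved toward the end in rpn10Δ (78.8% without KK1894 and KK1895, 61.9% without KK1581 and KK1582), 73.4% in nup132Δ RFB ON, 81.8% in WT RFB ON and 80.9% in WT RFB OFF. The share then dropped with distance, and in WT RFB OFF it was 67.2% at 5 to 10 kb, 55.4% at 10 to 15 kb and 51.4% at 15 to 20 kb. The other tips were less directed: in WT RFB OFF 57.7% at the right end of chromosome I, 49.1% at the left end of chromosome II and 59.1% at the right end of chromosome II, where it reached 78.6% at 10 to 15 kb. The segment at 10 to 15 kb of the right end of chromosome II and the tip of the left end of chromosome I share part of their sequence, so these values are not independent. In the outer 10 kb of the right end of chromosome II, single WT libraries, scaled by their slopes, gave 42.6 to 78.0% (mean 56.4%, n = 5).

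Farther in, the direction alternated around origins. In WT RFB OFF the share moving toward the end peaked at 90 to 95 kb of the right end of chromosome I (79.5%), at 70 to 75 kb of the left end of chromosome II (74.4%) and at 95 to 100 kb of the right end of chromosome II (84.9%). In nup132Δ RFB ON the same classes had 67.5, 63.2 and 69.3%, and in rpn10Δ 61.1, 58.4 and 66.3%. Without KK1894 and KK1895 the values of rpn10Δ were 69.5, 63.0 and 77.2%, and without KK1581 and KK1582 they were 56.2, 55.5 and 60.8%. In the classes of the right ends the order of the mutants thus depended on the libraries taken. In that of the left end of chromosome II rpn10Δ stayed below nup132Δ. Forks moved mostly away from the end at 45 to 50 kb of the left end of chromosome I (34.0% toward it in WT RFB OFF) and at 25 to 30 kb of the left end of chromosome II (34.5%). Of 20 classes of 5 kb, 12 to 14 lay above 50% at each end in WT RFB OFF.

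**Figure D4:**
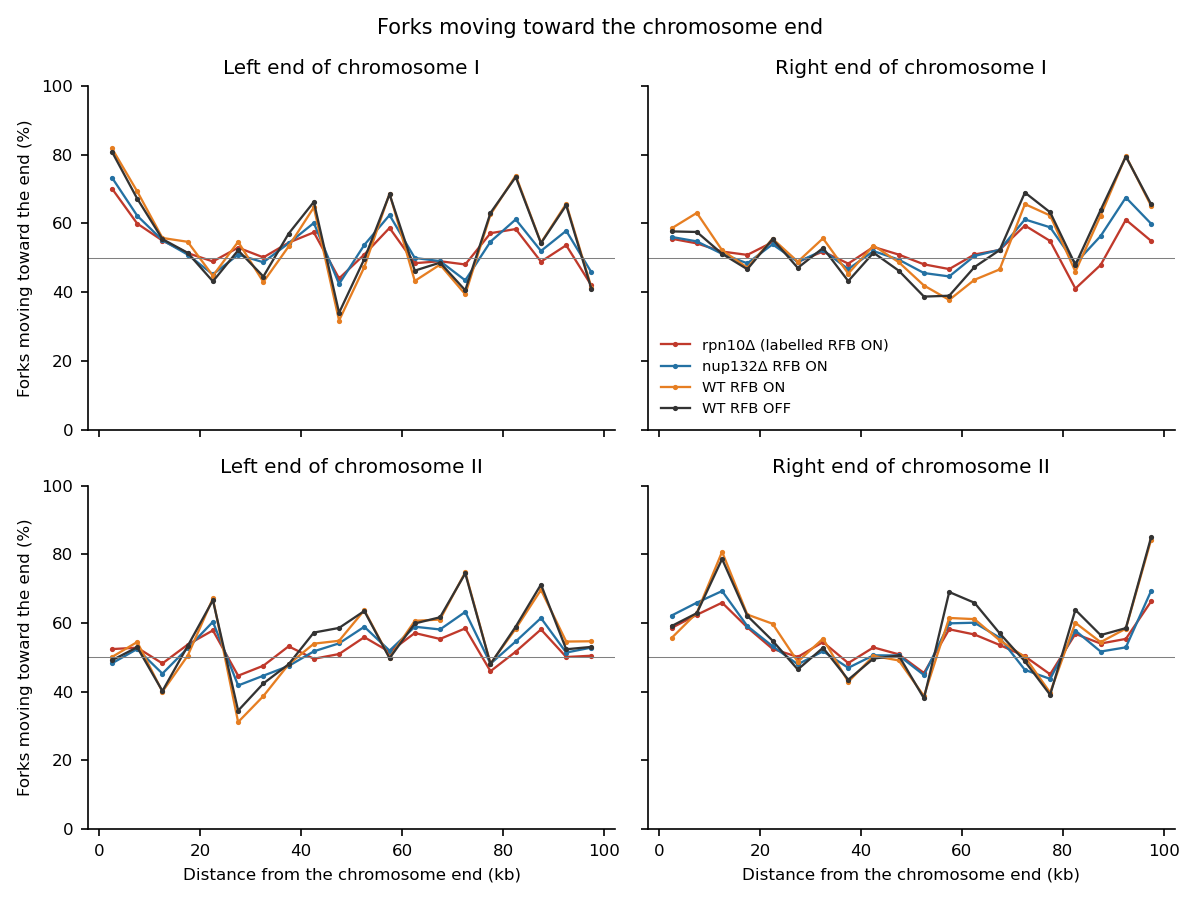
Share of forks moving toward the chromosome end (%) in classes of 5 kb against distance from the end in kb, in rpn10Δ (6 libraries labelled RFB ON), nup132Δ RFB ON, WT RFB ON and WT RFB OFF; the grey line marks 50%. Both WT lines lie close at most distances, and the mutant lines lie nearer to 50% at the peaks, as at 95 to 100 kb of the right end of chromosome II with 66.3% in all libraries of rpn10Δ (77.2% without KK1894 and KK1895), 69.3% in nup132Δ and 84.9% in WT RFB OFF.

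The ends were less directional than the rest of the genome. In WT RFB OFF the median distance of a 5-kb window from an even mixture was 7.19 percentage points in 78 windows of the ends and 16.6 in 1945 windows of the rest. The same medians were 3.21 and 7.61 points in rpn10Δ (4.96 and 13.5 without KK1894 and KK1895, 2.15 and 4.23 without KK1581 and KK1582), and 4.26 and 10.7 in nup132Δ RFB ON. Within single libraries the strand asymmetry of counts in the ends was 0.593 to 0.938 times that of the rest (median 0.644), lower in 20 of 20 libraries (permutation test by sign flips, p = 1e-05, the smallest it can give).

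Pol δ usage also fell below 50% on both strands at once in many windows of the ends, in 39.7% of them in rpn10Δ (44.9% without KK1894 and KK1895, 56.4% without KK1581 and KK1582), 34.6% in nup132Δ RFB ON, 41.0% in WT RFB ON and 39.7% in WT RFB OFF. In the rest these shares were 9.92, 7.56, 10.3 and 8.33%. The median usage over both strands in WT RFB OFF was 45.2% in the ends and 49.2% in the rest. This measure moves with the ratio of Pol δ to Pol ε counts, given above. No background changed it past the threshold at any end (12 comparisons, exact permutation, lowest adjusted p = 0.78). The mean usage of both strands was above 50% at the repeat array of the left end of chromosome II, except in rpn10Δ without KK1581 and KK1582. It moves with the array's counts in single libraries: in WT RFB ON these were 1.53 times the flanks in KK1471 (Pol δ) and 0.898 times in KK1475 (Pol ε). At 95 to 100 kb the mean of both strands was 56.3% in rpn10Δ (56.0% without KK1894 and KK1895, 49.6% without KK1581 and KK1582), 60.4% in nup132Δ RFB ON, 63.9% in WT RFB ON and 62.4% in WT RFB OFF (the array's counts in single libraries varied as given above).

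Origins of the ends were weaker than those of the rest. An origin was called in WT RFB OFF where the share of leftward forks fell by at least 10 percentage points from the 4.5 kb on its left to the 4.5 kb on its right, and this fall, its efficiency, had to be the largest within 3 kb. The ends held 26 origins: 7 at the left and 6 at the right end of chromosome I, 5 at the left and 8 at the right end of chromosome II. This is 65.0 per Mb, against 41.6 per Mb (398 origins) in the rest without the stretch of the barrier. Origins in sequence shared between the ends were counted at each copy, so the 26 are not all independent sites. The higher density came from origins under 20%: those of 20% or more numbered 12 in the ends (30.0 per Mb) and 298 in the rest (31.1 per Mb), and those of 30% or more numbered 6 and 245. Their median efficiency was 19.7% in the ends and 38.3% in the rest, and 23.1% of origins in the ends reached 30%, against 61.6% in the rest.

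The lower efficiency also held in the 17 libraries that were not used to call the origins. The fall of the Watson share, scaled by the asymmetry of each library, had a median over libraries of 18.9% at origins of the ends and 38.7% at those of the rest, and was lower in the ends in 17 of 17 libraries (permutation test by sign flips, two-sided, p = 2e-05). Without KK1894 and KK1895 the ends minus the rest gave -24.1 to -8.70 percentage points in 15 libraries (sign-flip permutation p = 7e-05). The count of origins depended on the definition: 12 were called with a minimum of 20%, 33 were called with a minimum of 5%, and 40 with 3 kb on each side.

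The outermost origin lay 5.85 kb from the left and 13.95 kb from the right end of chromosome I, and 9.75 kb from the left and 13.35 kb from the right end of chromosome II. The first 4.5 kb of a chromosome could not be scored. In WT RFB OFF these outermost origins were weak, with 16.5, 11.4, 13.5 and 17.5% in the same order. The origins at 5.85 and 10.95 kb of the left end of chromosome I lie in its outer 12 kb. This sequence is shared with 7.26 to 19.3 kb from the right end of chromosome II, where the origins at 13.35 and 18.15 kb lie. The origins of these 2 stretches are therefore not independent. The strongest of each end lay deeper. At the left end of chromosome I it was the bin chrI:61801-62100, with 21.3% in rpn10Δ (37.8% without KK1894 and KK1895), 27.4% in nup132Δ RFB ON, 46.5% in WT RFB ON and 45.7% in WT RFB OFF. At the left end of chromosome II it was chrII:52501-52800, with 15.6% (27.0%), 20.3%, 41.0% and 42.4% in the same conditions.

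The right end of chromosome I had no origin of 30% or more. Its strongest, chrI:5482201-5482500, gave 14.1% in rpn10Δ (22.9% without KK1894 and KK1895), 16.02% in nup132Δ RFB ON, 29.9% in WT RFB ON and 28.3% in WT RFB OFF. The most efficient of all 26 lay at the inner border of the right end of chromosome II, 99.75 kb from the end, with 31.3% (53.0%), 37.1%, 67.8% and 66.3% in the same conditions. Without KK1581 and KK1582 the values of rpn10Δ at these 4 origins were 10.7, 8.52, 8.30 and 19.3%, in the order given. These efficiencies are not scaled by the asymmetry of the libraries. Scaled by the slope of each library, the means in that order were 44.1, 33.3, 26.4 and 57.6% in nup132Δ (n = 9, SD 9.69 to 16.6). In WT they were 46.2, 41.9, 29.1 and 65.4% (n = 5). In rpn10Δ they were 35.4, 13.5, 10.4 and 80.2% (n = 6, SD 13.7 to 21.7), so scaling did not bring rpn10Δ close to WT. These means include KK1894 and KK1895, whose slopes of 0.0932 and 0.0733 are small and of the opposite sign to their label. A+T content was averaged over each bin and the bins next to it. For the 18 origins in the 3 ends with a matching reference its median was 72%, and 16 of 18 lay above the median of these ends. The median was 67.3% for all bins of these ends and 64% on chromosome I outside them. Taken alone, without their neighbours, the 3 bins printed above had 74, 68.7 and 70%.

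**Figure D5:**
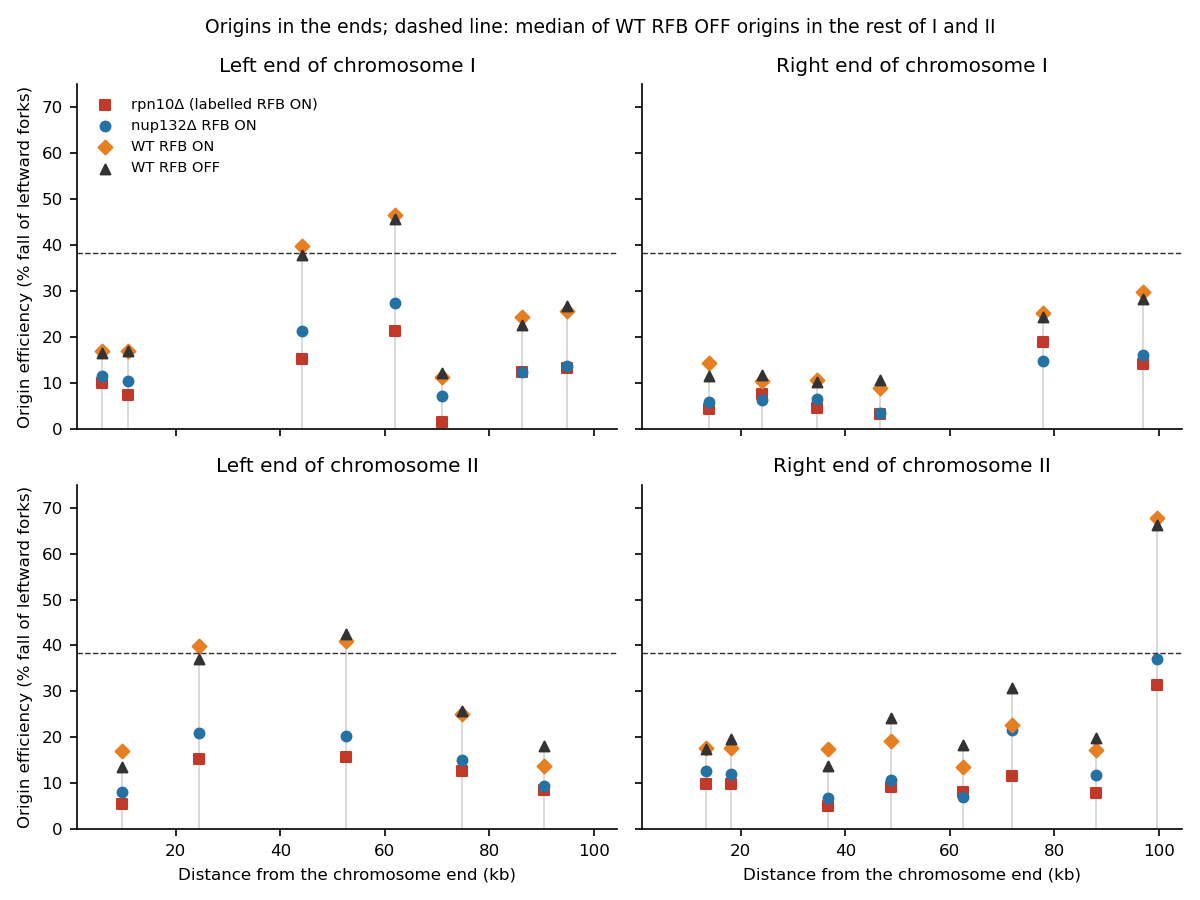
Efficiency (% fall of leftward forks) of the 26 origins against distance from the end in kb, in rpn10Δ (6 libraries labelled RFB ON), nup132Δ RFB ON, WT RFB ON and WT RFB OFF; the dashed line is the median of WT RFB OFF in the rest, 38.3%. Both mutants lie below both WT conditions at most origins in this unscaled measure, and only 3 black triangles lie above the dashed line.

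The strand change at these origins was lower in both mutants than in WT, and its lowest values were those of Hygro-marked mutants. In single libraries the Watson share changed across the origins of the ends by -1.20 to 23.1 percentage points in rpn10Δ (median 12.3, n = 6), by 8.52 to 24.0 in nup132Δ (median 12.4, n = 9), and in WT by 19.4, 19.8, 27.7, 28.6 and 28.9. The ranges of mutants and WT overlap across polymerases, since the 2 lowest WT libraries are the Pol δ ones. Averaged over the polymerases, the difference was -10.1 points for nup132Δ minus WT (exact permutation, two-sided, p = 0.00408, adjusted p = 0.0075) and -13.6 points for rpn10Δ minus WT (exact permutation, p = 0.005, the smallest possible, adjusted p = 0.0075). The origins were picked for their fall in WT RFB OFF, and those libraries are part of WT here. This choice can raise the WT values, so the p-values are not independent of it. Without KK1894 and KK1895 the difference of rpn10Δ was -5.78 points (exact permutation, p = 0.025, the smallest 40 arrangements can give). Leaving out any 1 of KK1473, KK1474 and KK1475 raised the adjusted p of rpn10Δ to 0.075 (exact permutation), with differences of -13.5, -13.6 and -13.8 points. Among Pol δ libraries the strand change was 8.52 to 12.7 points in Hygro-marked mutants (n = 4), 11.0 to 16.3 in unmarked mutants (n = 4) and 19.4 and 19.8 in WT. Among Pol ε libraries it was -1.20 to 12.4 in Hygro-marked mutants (n = 4), 17.7 to 24.0 in unmarked mutants (n = 3) and 27.7 to 28.9 in WT (n = 3). With unmarked mutants only, the difference from WT was -6.61 points in nup132Δ (exact permutation, adjusted p = 0.03) and -4.74 in rpn10Δ (exact permutation, adjusted p = 0.125, where 0.0833 is the smallest p before adjustment), and with Hygro-marked mutants only it was -14.0 and -18.1 (adjusted p = 0.025 for each, exact permutation). With RFB ON libraries only it was -10.4 points in nup132Δ and -13.4 in rpn10Δ, and neither passed (exact permutation, adjusted p = 0.0938 for each, where 0.04 and 0.0625 are the smallest p before adjustment). The WT libraries of that set were not used to call the origins. Between rpn10Δ and nup132Δ no difference passed the threshold (-3.54 points, exact permutation p = 0.398).

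A lower strand change was also found elsewhere. At the 398 origins of the rest, the difference from WT was -16.02 points in nup132Δ (exact permutation, p = 0.00408) and -21.7 points in rpn10Δ (exact permutation, p = 0.005). These origins were also picked in WT RFB OFF libraries that are part of WT here, so the same limit holds. The strand change in the ends as a percentage of that in the rest of the same library was 43.5 to 63.0% in rpn10Δ without KK1894 and KK1895 (n = 4), 44.6 to 77.8% in nup132Δ (n = 9) and 50.1 to 70.8% in WT (n = 5). It differed from WT by -0.30 points in nup132Δ (exact permutation, p = 0.890) and by -4.61 points in rpn10Δ (p = 0.125, where 0.025 is the smallest possible). Summed over origins, efficiency in the ends was 0.455 of the WT RFB OFF sum in rpn10Δ (0.757 without KK1894 and KK1895, 0.252 without KK1581 and KK1582), 0.562 in nup132Δ RFB ON, and 0.982 of it in the ON state of WT. In the rest it was 0.483 (0.824 and 0.296), 0.583 and 1.03.

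Fewer origins were called in the mutants, in the ends and in the rest. The same minimum fall, not scaled by library, was used for all conditions, although the genome-wide strand asymmetry of the mutants was lower (slopes below). A lower count is therefore not a count of lost origins, and the part of the lower asymmetry in it was not tested. An origin was called within 1.5 kb of 13 of the 26 sites of the ends in rpn10Δ (50%), of 17 in nup132Δ RFB ON (65.4%) and of 25 in WT RFB ON (96.2%). Of the 398 sites of the rest, 295 (74.1%), 298 (74.9%) and 386 (97.0%) were called in the same conditions. Without KK1894 and KK1895 the counts of rpn10Δ were 22 in the ends and 368 in the rest, and without KK1581 and KK1582 they were 3 and 226. Only 2 of the 6 sites of the right end of chromosome I were called in each mutant, and all 7 of the left end of chromosome I in WT RFB ON. No mutant called an origin in the ends that lacked a partner in WT RFB OFF.

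The genome-wide strand asymmetry moved with both genotype and marker. Slopes toward the label were -0.0932 to 0.457 in rpn10Δ (median 0.329), 0.147 to 0.460 in nup132Δ (median 0.343) and 0.477 to 0.543 in WT libraries (median 0.516). By marker they were -0.0932 to 0.341 in Hygro-marked mutants (n = 8) and 0.343 to 0.460 in unmarked mutants (n = 7), so that the 2 classes of mutant did not overlap and neither reached the WT range. For fork direction at the ends, the excess of the strand made by forks moving outward, averaged over the 4 ends, differed from WT by -1.43 points in nup132Δ (exact permutation, p = 0.121) and by -2.84 points in rpn10Δ (exact permutation, p = 0.04, adjusted p = 0.12). Without KK1582 the value of rpn10Δ was -3.55 points (exact permutation, adjusted p = 0.03). Divided by the slope of each library, the difference was 0.87 points in nup132Δ (exact permutation p = 0.112) and 0.31 points in rpn10Δ (exact permutation p = 0.635). With Hygro-marked mutants alone the unscaled difference was -2.74 points in nup132Δ and -3.98 in rpn10Δ (adjusted p = 0.025 for each, exact permutation), and with unmarked mutants alone -0.42 in nup132Δ and -0.55 in rpn10Δ (adjusted p = 0.75 for each).

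Polymerase usage was also tested per window and strand with edgeR, as the interaction of polymerase and background. For nup132Δ minus WT 38 of 266 tests in the ends passed (14.3%), beside 28.7% of all (12.2% higher and 16.5% lower), 23 higher and 15 lower in Pol δ over Pol ε. For rpn10Δ minus WT 90 passed (33.8%), beside 63.4% of all (29.9% higher and 33.5% lower), 64 higher and 26 lower. Both shares were below the background. For rpn10Δ minus nup132Δ 0 passed with edgeR, beside 0.0835% of all (0.0477% higher and 0.0358% lower), with 15 at an unadjusted p under 0.05, while DESeq2 called 5, all at the right end of chromosome I. The counts were not stable: 0 tests passed for nup132Δ minus WT without any 1 of KK1901, KK1902, KK1905, KK1906, KK1518, KK1467, KK1471, KK1473, KK1474 or KK1475, 23 passed without KK1869 or KK1523, and 73 without KK1582. For rpn10Δ minus WT 39 passed without KK1471, 57 without KK1894, and 0 without KK1894 and KK1895 together. For rpn10Δ minus nup132Δ 54 passed without KK1582.

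In the windows named by adjusted p, usage in the mutants lay nearer to 50% than in WT. On the Crick strand of chrI:81001-84000, which holds part of the gluconate symporter gene ght3, Pol δ usage was 40.1% in rpn10Δ (35.2% without KK1894 and KK1895), 36.4% in nup132Δ RFB ON, against 22.5% in WT RFB OFF, and the ratio of Pol δ to Pol ε was 2.06 times that of WT in nup132Δ (edgeR adjusted p = 0.0335). The Crick strand of chrII:48001-51000, in grt1 and the acetamidase gene fah1, had 41.5% (34.9%), 34.7% and 20.9% in the same conditions (2.02 times WT in nup132Δ, edgeR adjusted p = 0.0335, and 2.74 times in rpn10Δ, edgeR adjusted p = 0.00643). Where WT usage was high it was lower in the mutants. The Crick strand of chrI:45001-48000, in the phospholipase gene plb4, had 60.8% (68.3%), 62.1% and 75.1% in the same conditions (0.516 times WT in nup132Δ, edgeR adjusted p = 0.0335). The Watson strand of chrII:72001-75000 had 57.2% (58.6%), 59.3% and 70.5% (0.594 times, edgeR adjusted p = 0.0335).

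The lowest adjusted p of rpn10Δ minus WT in the ends fell 87.9 kb from the right end of chromosome I. At chrI:5490001-5493000, which holds most of cat1, Pol δ usage was 49.5% on Watson and 49.6% on Crick in rpn10Δ, 40.6 and 58.5% in nup132Δ RFB ON, and 30.0 and 67.6% in WT RFB OFF (2.21 times WT on Watson and 0.465 times on Crick in rpn10Δ, edgeR adjusted p = 0.00415 and 0.00294). Without KK1894 and KK1895 the usage of rpn10Δ was 48.7 and 54.0%, and no window of the ends passed for rpn10Δ minus WT (0 of 266 tests). Next to it, at 81 to 87 kb over put4, a proline transporter gene, a stretch chosen after its values were seen, the 3 rpn10Δ Pol δ libraries had Watson shares of 59.3, 60.8 and 62.1%. The nup132Δ Pol δ libraries had 41.4 to 53.5% (n = 5), and both WT Pol δ libraries 47.3 and 52.3%. All rpn10Δ Pol δ libraries thus lay above all others of this polymerase. Among Pol ε libraries KK1582 had 33.3%, below the 38.3 to 44.7% of nup132Δ (n = 4) and the 41.1 to 44.3% of WT (n = 3), while KK1894 and KK1895 had 44.1 and 44.6%. The share of forks moving toward the end was 39.9% in rpn10Δ (36.2% without KK1894 and KK1895), 47.8% in nup132Δ RFB ON, 46.0% in WT RFB ON and 47.0% in WT RFB OFF. At the origin 77.85 kb from this end the efficiency was 19.0% in rpn10Δ, 14.8% in nup132Δ RFB ON, 25.2% in WT RFB ON and 24.4% in WT RFB OFF. In rpn10Δ it was 29.9% without KK1894 and KK1895 and 12.1% without KK1581 and KK1582.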

How the data were processed

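The deposited tables hold raw counts of reads per 300-bp bin and strand, which the authors made with Bowtie2 and a custom Perl script; the genome build and the handling of reads with several matches are not given in the sources used here. Libraries with a mean under 10 counts per bin (3) were left out. Counts were scaled to library totals, and Pol δ usage was taken as defined in the text. Windows of 3 kb averaging 10 counts or more were fitted with edgeR 4.0.16 (TMM, quasi-likelihood, limma 3.58.1, R 4.3.3) on all libraries, with Benjamini-Hochberg adjustment over the genome and a threshold of 0.05; DESeq2 1.42.0 was an alternative. Differences between backgrounds were tested by exact permutation within polymerases. Sequence copies were found with BLAST+ 2.17.0 in RefSeq ASM294v3, and scripts ran in Python 3.11.15. The window fits were checked on simulated counts with the same spread in all windows. That check does not model the differences between strains and markers seen here. Windows were named where a comparison called 5 or fewer in the ends, otherwise the 5 with the lowest adjusted p, with the most efficient origin of each end and the genes at these places. Members, lists and tests were chosen with earlier results of these data known. Alternatives were other filters, windows, normalisations and library subsets, and leaving out each library.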

Additional observations from a re-analysis of the deposited data

How the results depend on the processing

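No paired analysis was possible because the labels give no replicate numbers that pair the libraries of different groups. In all, 287 alternatives were computed besides leaving out single libraries, of which 217 kept direction and side of the threshold. The alternatives without the outer 40 kb and without bins that have another copy were chosen after seeing the data. Differences in log2 count density, none past the threshold, changed sign as follows. With unmarked mutants only, rpn10Δ minus WT was 0.0305 and 0.141 at the left and right end of chromosome I and 0.0672 and 0.0636 at the left and right end of chromosome II, rpn10Δ minus nup132Δ was 0.0511 at the left end of I, 0.131 at the left and 0.0803 at the right end of II, and nup132Δ minus WT was 0.0454 at the right end of I. Without KK1894 and KK1895, rpn10Δ minus nup132Δ was 0.0460 at the left end of I, 0.02003 at the left and 0.0516 at the right end of II, and rpn10Δ minus WT was 0.0520 at the right end of I. Without bins that have another copy, nup132Δ minus WT was 0.00346 and rpn10Δ minus WT 0.01995 at the left end of I, rpn10Δ minus nup132Δ 0.0165 there, rpn10Δ minus WT 0.0223 at the right end of I, and nup132Δ minus WT 0.0161 and rpn10Δ minus WT 0.0137 at the left end of II. Without the outer 40 kb, rpn10Δ minus nup132Δ was 0.0160 at the left end of I and 0.0174 at the right end of II, and rpn10Δ minus WT was 0.0242 at the right end of I and 0.0125 at the right end of II. With the median over bins, rpn10Δ minus nup132Δ was 0.0136 at the left end of I, 0.00176 at the left and 0.0192 at the right end of II. In the outer 50 kb it was -0.0152 at the right end of I and 0.000997 at the left end of II. With RFB ON libraries only, nup132Δ minus WT was 0.0370 and rpn10Δ minus WT 0.0378 at the right end of I. With the shallow libraries, rpn10Δ minus nup132Δ was 0.0790 at the left end of I, and nup132Δ minus WT 0.0184 at the left end of II. Without KK1581 and KK1582, rpn10Δ minus nup132Δ was -0.0657 at the right end of I. Leaving out single libraries gave -0.0623 to 0.0137 for rpn10Δ minus nup132Δ at the left end of I, -0.0349 to 0.0169 for nup132Δ minus WT, -0.0473 to 0.0372 for rpn10Δ minus WT and -0.0383 to 0.0461 for rpn10Δ minus nup132Δ at the right end of I, and -0.0714 to 0.0514 for rpn10Δ minus nup132Δ at the left end of II.

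The toward-end strand excess passed the threshold with Hygro-marked mutants only (-2.74 points for nup132Δ minus WT, -3.98 for rpn10Δ minus WT) and without KK1581 and KK1582 (-3.98 for rpn10Δ minus WT, -2.55 for rpn10Δ minus nup132Δ). It changed sign for nup132Δ minus WT with the shallow libraries (1.67) and for rpn10Δ minus nup132Δ without KK1894 and KK1895 (0.027), and leaving out single libraries gave -3.55 to -2.48 for rpn10Δ minus WT. The strand change at origins no longer passed with RFB ON libraries only (-10.4 for nup132Δ minus WT, -13.4 for rpn10Δ minus WT), nor for rpn10Δ minus WT with unmarked mutants only (-4.74) or the shallow libraries (-6.51), the last of which gave 5.46 for nup132Δ minus WT. For rpn10Δ minus nup132Δ it was 1.87 with unmarked mutants and 4.32 without KK1894 and KK1895. Leaving out single libraries gave -17.6 to -11.5 for rpn10Δ minus WT. The designs with RFB ON libraries or unmarked mutants hold few arrangements, which limits the p they can reach.

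Windows of total counts called in the ends for rpn10Δ minus WT numbered 8 with DESeq2, 18 with 1.5-kb windows, 1 with unmarked mutants, 0 without KK1894 and KK1895, 14 without KK1581 and KK1582, and 0 to 12 without single libraries. For nup132Δ minus WT 1 was called without KK1894 and KK1895. For rpn10Δ minus nup132Δ there were 1 with 1.5-kb windows, 0 with Hygro-marked and 0 with unmarked mutants, 5 without KK1894 and KK1895 and 6 without KK1581 and KK1582. Usage calls for nup132Δ minus WT numbered 61 with 1.5-kb windows, 0 with RFB ON libraries only, 137 with Hygro-marked mutants, 72 without KK1894 and KK1895, 86 without KK1581 and KK1582, and 0 to 73 without single libraries. For rpn10Δ minus WT they numbered 175, 0, 167, 0 and 136 under the same settings, 0 with unmarked mutants, and 39 to 131 without single libraries. For rpn10Δ minus nup132Δ they numbered 5 with DESeq2, 51 with Hygro-marked mutants, 56 without KK1581 and KK1582, and 0 to 54 without single libraries. The cause of these changes was not tested, except that some settings hold fewer libraries.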
